A study of Mus musculus with 14 samples.

Results

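Genes of insulin, AKT and mTOR signalling were followed in mouse liver. There are 30, of 24983 genes with a count, and all 30 are among the 13131 genes that could be tested. They were taken by name from the canonical pathway, with earlier results of these data known. By role they are 16 activators (the receptor and its adaptors, the PI3K subunits, the AKT kinases with their upstream kinase, and the mTOR complexes with RHEB), 4 AKT substrates and 10 inhibitors. The livers came from recipient mice on a high-fat diet. In the transplant group (n = 6, condition BAT pre-adipocyte transplant, titled iBAT 2x) a silk scaffold carried differentiated pre-adipocytes, obtained from the stromal cells of brown adipose tissue. In the empty scaffold group (n = 8, condition Empty scaffold transplant, titled Sham-WT) the implanted scaffold held no cells. The high-fat diet was shared by all samples, and the labels used here give neither strain, age and sex of the recipients nor the time after surgery, feeding state or any insulin injection before the liver was taken. The question posed by the design is how the transplant alters recipient metabolism, liver mRNA included, and the series title names glucose homeostasis.

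Insulin binds its receptor, a tyrosine kinase, which phosphorylates adaptor proteins of the IRS and SHC families. IRS proteins recruit PI3K, whose lipid product brings the kinases PDK1 and AKT to the membrane, and active AKT then phosphorylates GSK3, the FOXO transcription factors and the TSC complex. In liver this route restrains glucose output and promotes glycogen and lipid synthesis, and it is controlled mostly by phosphorylation, which mRNA levels do not show.

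Total estimated counts per library were 22898793 to 28910968 in the transplant group and 19482580 to 28723928 in the empty scaffold group, and the means did not differ past the spread (exact permutation p = 0.309, two-sided). Hepatocyte markers made up 94777 to 147038 CPM in transplant livers and 78864 to 141706 CPM in empty scaffold livers, and none of the 8 was called. Most of this was Alb, which averaged 73340 CPM in transplant livers and 66349 CPM in empty scaffold livers. The sample titles carry numbers of unstated meaning, which fall into a range below 100 and a range of 100 or above. Each range holds 3 transplant and 4 empty scaffold libraries. Within the ranges the groups do not interleave, since below 100 the transplant livers carried 88 to 90 and the empty scaffold livers 52 to 83, and from 100 upward each transplant number was lower than each empty scaffold number. A group difference within a range therefore cannot be told apart from anything else that follows the numbers.

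RefSeq promoter windows (GRCm38.p6) were matched for 29 of the 30 genes, 38 windows in all. They are shown for the pair of genes whose levels passed the test, Irs1 and Rheb, for Irs2, the paralogue of Irs1, and for Akt1. Akt1 has a further window at another start, which is not shown. Each sequence is the 250 bases before the start, 5′ to 3′ on the minus strand, where these 4 genes lie. Capitals mark the E-box CACGTG (its own reverse complement) in the windows of Irs1, Irs2 and Rheb, and in the Akt1 window the FOXO core GTAAACA, found there as its reverse complement TGTTTAC.
Irs1, chr1:82291440-82291689: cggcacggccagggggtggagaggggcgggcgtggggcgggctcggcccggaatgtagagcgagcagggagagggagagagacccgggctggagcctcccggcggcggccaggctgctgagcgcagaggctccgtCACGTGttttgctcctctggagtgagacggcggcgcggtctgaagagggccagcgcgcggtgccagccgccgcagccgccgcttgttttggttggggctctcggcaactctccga
Irs2, chr8:11008930-11009179: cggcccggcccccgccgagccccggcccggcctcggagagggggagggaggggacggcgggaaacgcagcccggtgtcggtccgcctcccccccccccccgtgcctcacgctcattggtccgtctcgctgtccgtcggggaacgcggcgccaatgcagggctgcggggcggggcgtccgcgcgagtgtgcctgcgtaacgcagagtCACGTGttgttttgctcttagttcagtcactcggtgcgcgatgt
Rheb, chr5:24842362-24842611: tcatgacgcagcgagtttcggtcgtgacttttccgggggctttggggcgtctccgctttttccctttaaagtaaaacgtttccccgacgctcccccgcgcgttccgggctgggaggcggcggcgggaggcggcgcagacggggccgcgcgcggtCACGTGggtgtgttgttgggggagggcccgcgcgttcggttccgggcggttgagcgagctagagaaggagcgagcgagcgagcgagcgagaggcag
Akt1, chr12:112674885-112675134: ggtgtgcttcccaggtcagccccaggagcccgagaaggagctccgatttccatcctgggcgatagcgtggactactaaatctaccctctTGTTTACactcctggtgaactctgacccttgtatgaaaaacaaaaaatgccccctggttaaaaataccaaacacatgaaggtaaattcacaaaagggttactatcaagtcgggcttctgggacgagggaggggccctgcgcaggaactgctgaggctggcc

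On both strands, the FOXO core lay in 1 of the 38 windows of the 30 genes (2.63%), against 3.65% of all 32851 RefSeq windows of the same length. It was the Akt1 window shown, and the Akt1 window at the other start (chr12:112674277-112674526) held 0 matches. The E-box, a motif searched after these sequences had been seen, lay in 3 of the 38 windows (7.89%), against 7.15% of all windows. In Irs2 and Rheb it stands 44 and 96 bases before the start.

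Irs1 was lower and Rheb higher in transplant livers relative to empty scaffold livers, and no other gene of the 30 was called. The calls come from edgeR's quasi-likelihood test, with Benjamini-Hochberg adjusted p under 0.05 over all tested genes. They make up 6.67% of the 30 genes, where 7.54% of all genes tested were called, 3.31% higher and 4.23% lower, so the share called was near that of genes at large. The sign leaned one way, because 27 of the 30 fitted log2 fold changes (90%) were below 0, with a median of −0.21. Over all genes tested 52.9% were below 0, with a median of −0.02. In these bulk samples, fewer cells of a type and less RNA per cell cannot be told apart.

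The negative lean moved with transcript length and with the scaling of the libraries. With each library's trends of gene level against length and GC content removed, the median of the 30 genes was 0.00 (15 of 30 below 0) and none was called, against 3.09% of all genes. Without TMM factors, on total counts alone, the median of the 30 was −0.45 and that of all genes tested −0.25, and 16 of the 30 were called, all lower, where 22.0% of all genes were called (0.891% higher and 21.1% lower). TMM factors were 0.856 to 0.987 in transplant libraries and 0.856 to 1.22 in empty scaffold libraries, so fold changes are relative to the bulk of genes in these libraries.

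**Figure D1:**
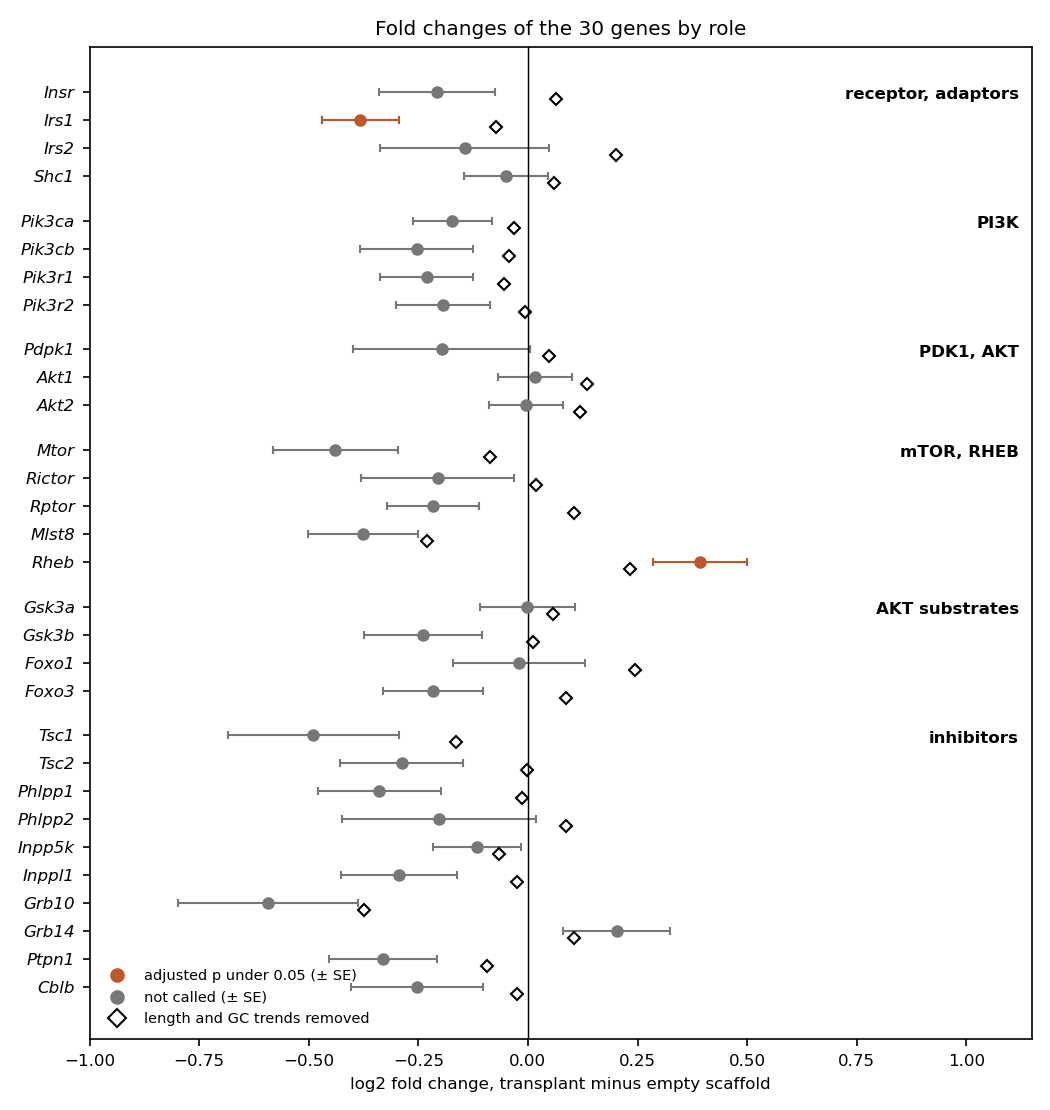
Log2 fold changes of the 30 genes (x axis, transplant minus empty scaffold, filled points with standard errors) by role (rows), with the values after removal of length and GC trends as open diamonds. Filled points lie left of 0 for 27 genes, and the open diamonds are spread evenly, with 15 below 0.

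Among the receptor and its adaptors, Irs1 was the gene called, and Insr, Irs2 and Shc1 were not. Irs1, the insulin receptor substrate that couples the receptor to PI3K, had 8.502, 9.55, 8.57, 7.39, 8.78 and 9.13 CPM in the 6 transplant livers. In the 8 empty scaffold livers Irs1 had 12.2, 11.2, 11.8, 10.3, 10.2, 10.4, 12.6 and 11.6 CPM. Every transplant library lay below every empty scaffold library, a separation in that direction that 0.701% of all tested genes showed. None of the 30 was separated in the other direction, as 0.571% of all tested genes were. Irs1 averaged 8.66 ± 0.733 CPM in transplant livers (SD, n = 6) and 11.3 ± 0.898 CPM in empty scaffold livers (SD, n = 8), and its log2 fold change was −0.38 ± 0.09 (edgeR adjusted p = 0.0243).

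Irs1 is a long gene in this annotation, at 9144 bases of transcript, and its value depended on the length trend. With length and GC trends removed its log2 fold change was −0.07 (edgeR adjusted p = 0.760), at 9.82 ± 1.07 CPM in transplant livers and 10.4 ± 1.78 CPM in empty scaffold livers (SD), and the groups overlapped. With the length trend alone removed it was −0.13. As fitted, the log2 fold change was −0.40 for title numbers below 100 and −0.36 for the others. Taking out both trends changed these values to −0.31 (edgeR adjusted p = 0.477) and 0.17 (adjusted p = 0.362). The −0.07 over all samples thus lies between ranges of opposite sign, and below 100 most of the fitted value remained. The interaction of group and range then had an edgeR unadjusted p of 0.0088 and an adjusted p of 0.357. Leaving out 1 library at a time kept the call in 12 of 14 fits, and without transplant replicate 1 or transplant replicate 5 the adjusted p was 0.0549 and 0.0528. The deposited TPM of Irs1 was 0.741 ± 0.199 in transplant livers and 1.32 ± 0.317 in empty scaffold livers (SD, n = 6 and 8). On that scale the mean of each of the 30 genes was lower in transplant livers. That includes Akt2, with a fitted log2 fold change of 0.00, at 23.1 ± 7.47 TPM in transplant and 32.2 ± 9.76 TPM in empty scaffold livers. Akt2 had 40.4 to 41.8 TPM in empty scaffold libraries numbered 100 or above, and 17.8 to 27.1 TPM in those below 100. The share of all genes lower in TPM is not given here. The TPM difference of Irs1 therefore cannot be told apart from a shift of the whole scale.

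Insr, the insulin receptor, had 43.4, 80.6, 68.8, 65.2, 69.5 and 65.6 CPM in transplant livers, against 91.0, 82.7, 87.0, 87.1, 60.9, 64.3, 65.1 and 67.0 CPM in empty scaffold livers. The lowest library of all was transplant replicate 1, and the 4 empty scaffold libraries numbered 100 or above were higher than every transplant library. The log2 fold change of Insr over all samples was −0.21 ± 0.13 (edgeR adjusted p = 0.299). Irs2, the adaptor whose transcription insulin represses in liver, had 5.07, 8.86, 5.90, 6.94, 11.4 and 8.96 CPM in transplant livers. In empty scaffold livers Irs2 had 12.2, 9.40, 11.0, 8.42, 6.31, 5.76, 7.27 and 8.87 CPM, and the groups overlapped (log2 fold change −0.14 ± 0.19, edgeR adjusted p = 0.634). Shc1, an adaptor that leads to the RAS and MAPK route, ranged from 37.0 to 51.0 CPM in transplant livers and from 35.8 to 50.8 CPM in empty scaffold livers (log2 fold change −0.05 ± 0.10).

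None of the 4 PI3K genes was called, and all 4 had a negative log2 fold change, between −0.25 and −0.17. Pik3r1, the main regulatory subunit, averaged 61.3 ± 6.14 CPM in transplant livers and 72.0 ± 10.1 CPM in empty scaffold livers (SD). Pik3r2, the other regulatory subunit, averaged 22.8 ± 2.91 CPM in transplant livers and 26.1 ± 3.58 CPM in empty scaffold livers. Of the catalytic subunits, Pik3ca averaged 21.2 ± 2.46 CPM in transplant livers and 23.9 ± 1.80 CPM in empty scaffold livers, and Pik3cb 12.0 ± 1.75 CPM in transplant livers and 14.3 ± 2.58 CPM in empty scaffold livers. With trends removed, the 4 values lay between −0.06 and −0.01.

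The AKT kinase genes Akt1 and Akt2 had fitted differences near 0. Akt2, the main AKT of hepatocytes, averaged 84.8 ± 7.90 CPM in transplant livers and 85.1 ± 6.70 CPM in empty scaffold livers (SD), a log2 fold change of 0.00 ± 0.08 (edgeR adjusted p = 0.980). Akt1 averaged 44.9 ± 3.82 CPM in transplant livers and 44.4 ± 4.11 CPM in empty scaffold livers, a log2 fold change of 0.02 ± 0.09. Without TMM factors these values were −0.24 for Akt2 and −0.22 for Akt1, near the median of all genes on that scale, and with trends removed 0.12 for Akt2 and 0.13 for Akt1. Pdpk1, which encodes the AKT kinase PDK1, ranged from 13.8 to 26.3 CPM in transplant livers and from 12.1 to 27.0 CPM in empty scaffold livers (log2 fold change −0.20 ± 0.20).

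Among the mTOR genes, Rheb was higher and the 4 complex subunits were not called. With the range of title numbers as a covariate, Mtor and Mlst8 were also called (edgeR adjusted p = 0.0361 and 0.0308), where 19.6% of all genes were. Rheb, the small GTPase that activates mTOR complex 1 and is switched off by the TSC complex, had 69.2, 49.4, 52.2, 57.3, 57.7 and 50.7 CPM in transplant livers. In empty scaffold livers Rheb had 36.6, 37.9, 35.9, 37.8, 50.2, 48.8, 47.2 and 47.4 CPM. Transplant replicate 2, at 49.4 CPM, lay below empty scaffold replicate 5, at 50.2 CPM, and every other transplant library lay above every empty scaffold library. Rheb averaged 56.1 ± 7.30 CPM in transplant livers (SD, n = 6) and 42.7 ± 6.16 CPM in empty scaffold livers (SD, n = 8), and its log2 fold change was 0.39 ± 0.11 (edgeR adjusted p = 0.0400).

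Rheb is the shortest of the 30 genes, at 1775 bases, and the tested genes of 1539 to 2284 bases had a median log2 fold change of 0.10. With length and GC trends removed, its log2 fold change was 0.23 (edgeR adjusted p = 0.0637). The libraries then lay at 48.8 to 59.3 CPM in transplant livers and 40.5 to 48.5 CPM in empty scaffold livers, without overlap but with a narrow gap. The share of all genes separated on that scale is not given here. With the length trend alone removed the value was 0.28 (adjusted p = 0.0395). Leaving out 1 library at a time kept the call in 5 of 14 fits, those without transplant replicate 2 or 6 or without empty scaffold replicate 5, 6 or 7, and the log2 fold change without TMM factors was 0.17 (edgeR adjusted p = 0.186). The deposited TPM of Rheb were 30.8 ± 6.48 in transplant livers and 32.1 ± 5.75 in empty scaffold livers (SD), so the direction did not hold on that scale. All of the 30 genes had a lower mean TPM in transplant livers, so a lower TPM is not particular to Rheb.

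Mtor, the kinase subunit of both mTOR complexes, had 27.9, 47.5, 43.0, 42.3, 42.7 and 44.1 CPM in transplant livers, against 64.0, 61.4, 68.3, 61.9, 35.5, 46.3, 56.0 and 53.6 CPM in empty scaffold livers. The groups overlapped through empty scaffold replicates 5 and 6, and the log2 fold change was −0.44 ± 0.14 (edgeR adjusted p = 0.0615). With trends removed it was −0.09. Mlst8, a subunit of both complexes, averaged 5.52 ± 0.843 CPM in transplant livers and 7.17 ± 1.07 CPM in empty scaffold livers (log2 fold change −0.38 ± 0.13, adjusted p = 0.0676). Rptor, the subunit that defines complex 1, and Rictor, which defines complex 2 and through it AKT phosphorylation, had log2 fold changes of −0.22 ± 0.11 and −0.21 ± 0.17.

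**Figure D2:**
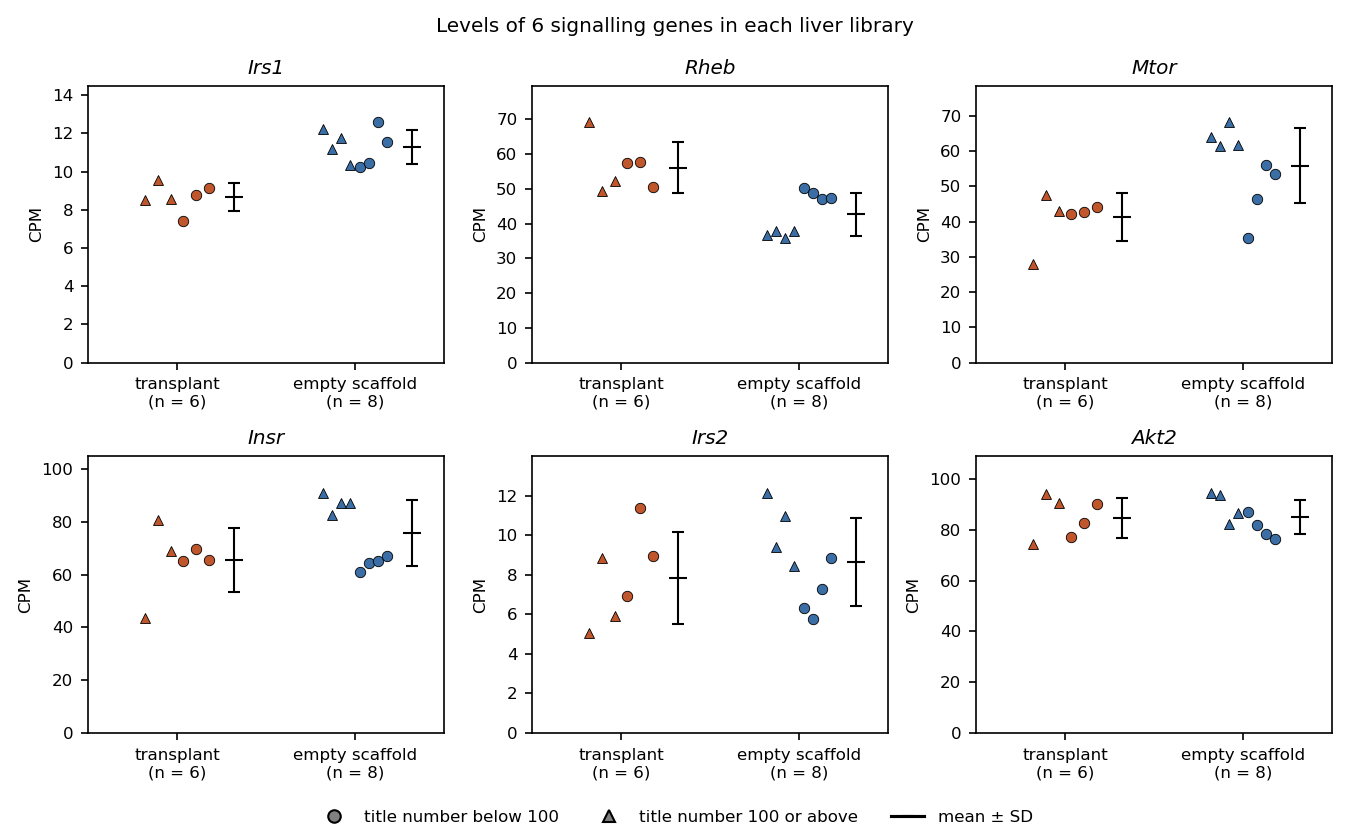
Levels of 6 genes in CPM (y axis, from 0) in each library of the transplant group (n = 6) and the empty scaffold group (n = 8), with marker shape for the range of title numbers and a bar for mean ± SD. For Irs1 the groups do not overlap, for Rheb a single transplant library lies under the highest empty scaffold library, and for Mtor, Insr, Irs2 and Akt2 the groups overlap.

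None of the 4 AKT substrate genes was called, and their median log2 fold change was −0.12. Foxo1, the transcription factor that drives gluconeogenic genes when insulin is low, had 19.4, 40.2, 31.5, 38.7, 34.2 and 39.2 CPM in transplant livers and 39.1, 32.2, 31.6, 37.8, 22.9, 35.3, 36.4 and 39.2 CPM in empty scaffold livers. In each group 1 library was well under the rest, transplant replicate 1 and empty scaffold replicate 5, and the log2 fold change was −0.02 ± 0.15. Foxo3 averaged 30.5 ± 6.19 CPM in transplant livers and 35.4 ± 3.36 CPM in empty scaffold livers (log2 fold change −0.22 ± 0.12). The glycogen synthase kinase genes had log2 fold changes of 0.00 ± 0.11 for Gsk3a and −0.24 ± 0.13 for Gsk3b, whose transcripts are 2253 and 7994 bases long.

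None of the 10 inhibitors was called without a covariate. With the range of title numbers as one, 3 were (Tsc1, Phlpp1 and Grb10), where 19.6% of all genes were called. In the fit without it, 9 of the 10 had a negative log2 fold change. The median of the 10, −0.29, stood below that of the 16 activators, −0.20. With trends removed the medians were −0.02 for inhibitors and 0.03 for activators. Tsc1 and Tsc2, the partners of the complex that holds RHEB inactive, averaged 11.4 ± 3.23 and 28.5 ± 4.58 CPM in transplant livers, against 15.96 ± 4.47 and 34.8 ± 7.31 CPM in empty scaffold livers (log2 fold changes −0.49 ± 0.20 and −0.29 ± 0.14, edgeR adjusted p = 0.108 and 0.175). Ptpn1, the phosphatase that dephosphorylates the insulin receptor, averaged 17.1 ± 2.72 CPM in transplant livers and 21.4 ± 3.05 CPM in empty scaffold livers (log2 fold change −0.33 ± 0.12, adjusted p = 0.0909).

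Grb14, a liver-expressed adaptor that binds and inhibits the receptor kinase, was the inhibitor with a positive value, 0.20 ± 0.12 (edgeR adjusted p = 0.271). It had 38.1 to 50.2 CPM in transplant livers and 31.9 to 52.3 CPM in empty scaffold livers, and without TMM factors its value was −0.02. Its relative Grb10 had the most negative value of the 30, −0.59 ± 0.21 (adjusted p = 0.0751), at a low level of 0.983 ± 0.242 CPM in transplant livers and 1.47 ± 0.331 CPM in empty scaffold livers. The phosphatases Phlpp1 and Phlpp2, which dephosphorylate AKT, had −0.34 ± 0.14 and −0.20 ± 0.22. The inositol lipid phosphatases Inppl1 and Inpp5k, which degrade the lipid made by PI3K, had −0.29 ± 0.13 and −0.12 ± 0.10, and the ubiquitin ligase Cblb had −0.25 ± 0.15.

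By level per transcript length, the deposited TPM put Rheb (30.8 ± 6.48 TPM), Grb14 (28.1 ± 2.97 TPM) and Akt2 (23.1 ± 7.47 TPM) highest of the 30 in transplant livers. In empty scaffold livers the highest were Akt2 (32.2 ± 9.76 TPM), Rheb (32.1 ± 5.75 TPM) and Grb14 (30.9 ± 2.94 TPM), and neighbours in these orders differed by less than the larger of their SDs. The IRS genes stood low in the order, with Irs2 at 0.905 ± 0.305 TPM in transplant livers and 1.42 ± 0.595 TPM in empty scaffold livers, and Grb10 and Phlpp2 lowest in transplant livers, at 0.174 ± 0.0495 and 0.158 ± 0.0543 TPM.

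The genes of this pathway have long transcripts, and in these libraries fold change went with length. With the tested genes divided by length into 5 bins of nearly equal number, the bins held 0, 3, 5, 3 and 19 of the 30 from the shortest to the longest, which begins at 4487 bases. In the same order the median log2 fold change of all genes was 0.27, 0.10, −0.02, −0.13 and −0.24. In the longest bin 19 of 19 of these genes and 85.8% of all genes had a negative value, with medians of −0.23 and −0.24. Across the 30 genes, log2 fold change and log2 length had a Pearson r of −0.61 and a Spearman rho of −0.42, and across all tested genes −0.46 and −0.55. These are descriptions across genes of the same libraries, which are not independent replicates.

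**Figure D3:**
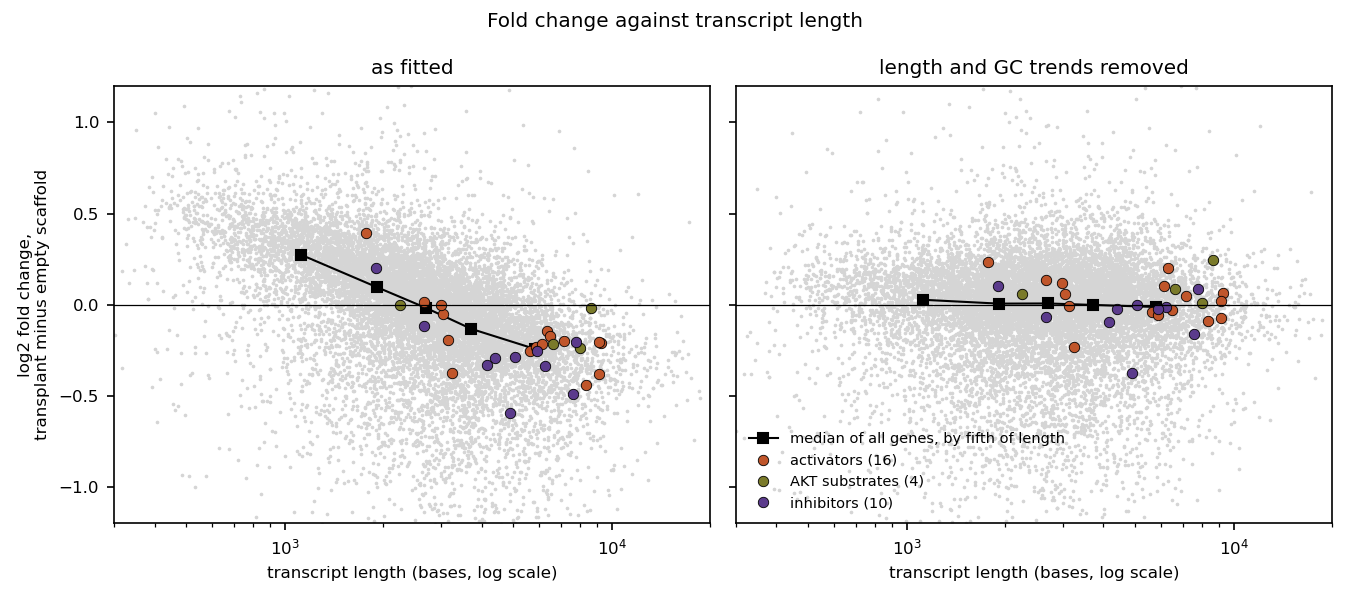
Log2 fold change (y axis, transplant minus empty scaffold, drawn from −1.2 to 1.2) against transcript length (x axis, bases, log scale) for all genes (grey), the 30 genes coloured by class, and the median of all genes in 5 bins of length (squares). As fitted, the medians run from 0.27 in the shortest bin to −0.24 in the longest and the 30 genes lie along them, and with trends removed the median of the 30 is 0.00.

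Split at the median length of 5884 bases, the 15 longer genes all had a negative value (median −0.22), and 12 of the 15 shorter genes did (median −0.19). The longer genes were 8 activators, 3 AKT substrates and 4 inhibitors, and the shorter ones 8 activators, 1 AKT substrate and 6 inhibitors. With trends removed the medians were 0.02 for the longer and −0.01 for the shorter genes.

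The trend with length differed between libraries. The slope of log2 CPM on log2 length over all tested genes was −0.267, 0.029, −0.008, −0.165, −0.124 and −0.095 per doubling of length in the 6 transplant libraries. In the 8 empty scaffold libraries it was 0.208, 0.194, 0.233, 0.242, −0.035, −0.084, −0.126 and −0.003, positive in the 4 numbered 100 or above and negative in the 4 numbered below 100. The mean slope was −0.105 ± 0.107 in transplant libraries (SD, n = 6) and 0.0787 ± 0.155 in empty scaffold libraries (SD, n = 8), a difference of −0.184 (two-sided exact permutation p = 0.0313). Within the samples numbered 100 or above the difference was −0.301 (exact permutation p = 0.0286, the smallest that 3 against 4 libraries allow), and within those below 100 it was −0.066 (exact permutation p = 0.143). Leaving out 1 library at a time gave −0.213 to −0.151, with p above 0.05 in 7 of the 14 fits.

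The levels of the longer of the 30 genes moved with the slope of the library. Their median deviation from the gene mean, on the log2 scale, was −0.42, 0.20, −0.11, −0.21, −0.15 and −0.13 in transplant libraries. In empty scaffold libraries it was 0.35, 0.24, 0.35, 0.31, −0.03, −0.13, −0.11 and 0.10. Transplant replicate 1, with the most negative slope, had the longer genes lowest, and the 4 empty scaffold libraries with positive slopes had them highest. The 15 shorter genes ranged from −0.19 to 0.03 in transplant libraries and from −0.05 to 0.16 in empty scaffold libraries. The part that RNA fragment length, RNA integrity or library preparation has in these slopes was not tested, and the labels give no integrity value per sample.

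**Figure D4:**
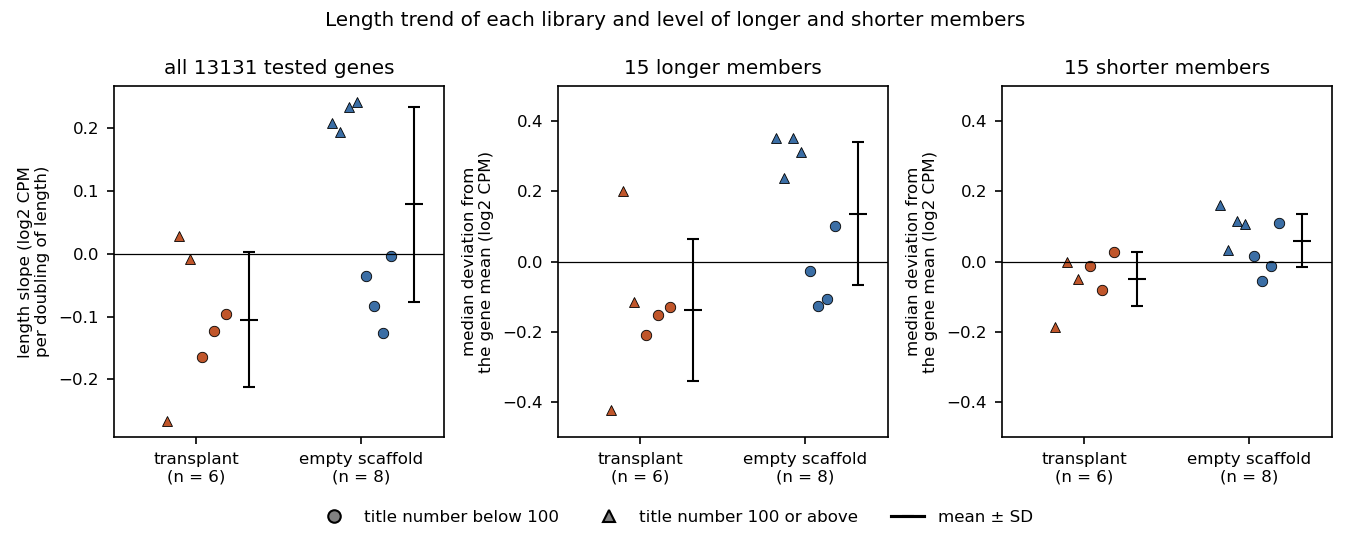
Left, slope of log2 CPM on log2 transcript length over all tested genes in each library (y axis, per doubling of length). Middle and right, median deviation of the 15 longer and 15 shorter genes from their means (y axis, log2 CPM), with mean ± SD and marker shape for the range of title numbers. Empty scaffold libraries numbered 100 or above have slopes of 0.194 to 0.242 and the highest values of the longer genes, 0.24 to 0.35.

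The ranges of title numbers gave different counts. Among samples numbered 100 or above alone, 10 of the 30 genes were called (33.3%), where 26.0% of all genes tested there were called (14.5% higher and 11.5% lower). Irs1, Irs2, Pik3cb, Mtor, Tsc1, Tsc2, Phlpp1, Inppl1 and Ptpn1 were lower and Rheb was higher in transplant livers. The log2 fold changes there were −0.70 for Mtor (edgeR adjusted p = 0.0173), −0.64 for Irs2 (0.0395) and 0.62 for Rheb (0.0156). With trends removed within that range Rheb alone of the 30 was called, at 0.34 (edgeR adjusted p = 0.0468), against 7.02% of all genes, and Irs1 was at 0.17. Among samples numbered below 100, none of the 30 and 3 of 12970 genes (0.0231%) were called, and the median of the 30 was −0.05. With the range as a covariate over all 14 samples, 7 of the 30 were called, against 19.6% of all genes. They were Irs1, Mtor, Mlst8, Tsc1, Phlpp1 and Grb10, all lower, and Rheb, higher (edgeR adjusted p = 0.0141 to 0.0487). With trends also removed Rheb was the 1 called (0.24, edgeR adjusted p = 0.0347), against 6.24%.

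Whether the group difference itself depended on the range was tested as an interaction, and 0 of the 13131 genes were called by edgeR after adjustment. At an unadjusted p under 0.05 the interaction passed for 6 of the 30 genes (20%), Insr, Irs2, Pik3cb, Mtor, Rheb and Tsc2, and for 17.3% of all genes. The value was most negative for Irs2, whose log2 fold change was −0.64 in the higher range and 0.37 in the lower range (difference −1.0, edgeR unadjusted p = 0.0038, adjusted p = 0.177). In the higher range the transplant livers had 5.07 to 8.86 CPM of Irs2 and the empty scaffold livers 8.42 to 12.2 CPM. In the lower range the transplant livers had 6.94 to 11.4 CPM and the empty scaffold livers 5.76 to 8.87 CPM. With trends removed, 3 of the 30 (10%) passed at an unadjusted p under 0.05, Irs1, Irs2 and Pik3cb, against 9.98% of all genes.

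**Figure D5:**
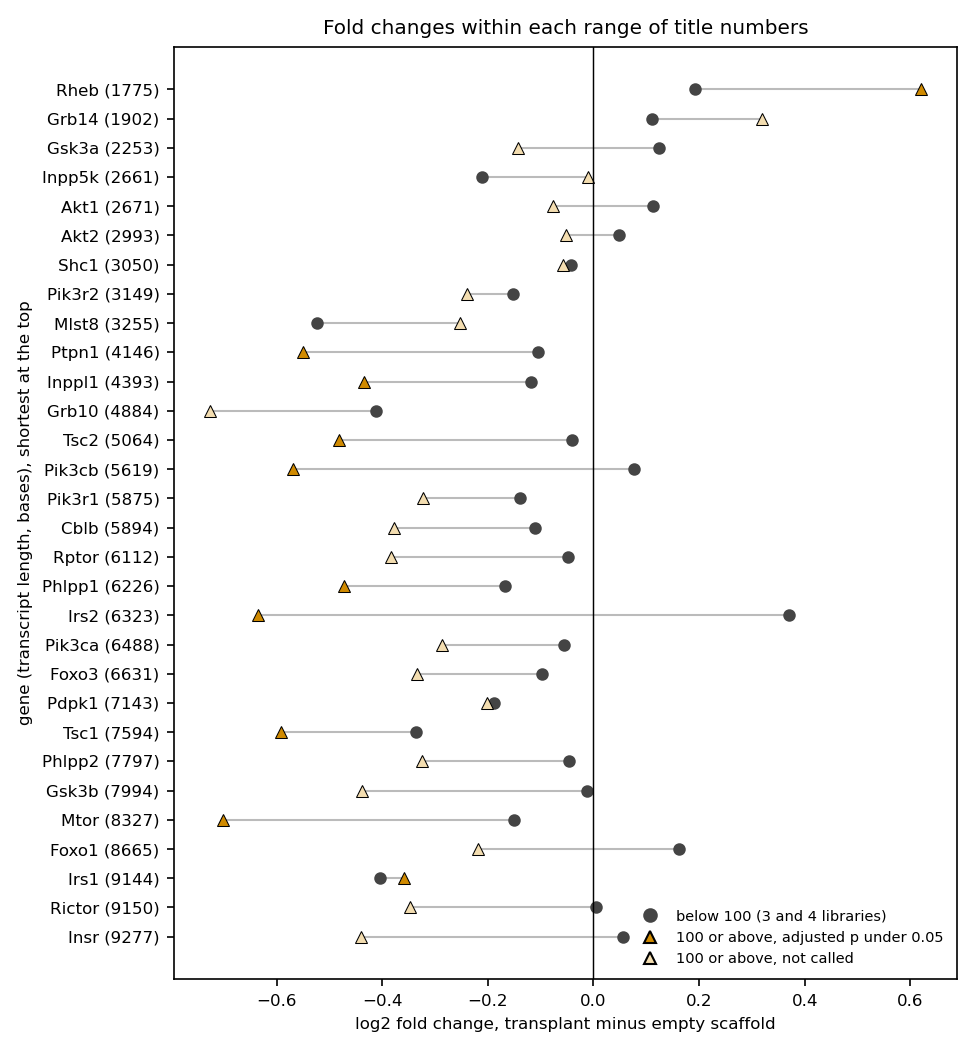
Log2 fold change of each gene (x axis, transplant minus empty scaffold) in the samples numbered below 100 (circles) and 100 or above (triangles, darker where called), with genes in rows from the shortest transcript at the top to the longest. Medians are −0.05 in the lower range and −0.34 in the higher range, and the 10 called genes are all in the higher range.

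Single transcripts of the 30 genes gave no call. Of 72 transcripts tested, from all 30 genes, 0 were called by edgeR over 27309 transcripts, of which 0 were called in all. The smallest adjusted p of the 72 was 0.108, for the only tested transcript of Irs1. At an unadjusted p under 0.05, 10 of the 72 (13.9%) passed, against 12.6% of all transcripts. In 20 genes at least 2 transcripts were tested, and the shortest had a higher log2 fold change than the longest in 7 of them. Where lengths were at least 2 times apart this held in 5 of 13 genes, Mtor, Grb14, Foxo3, Gsk3b and Tsc2. Estimated counts of short transcripts that share exons with long ones are uncertain, since the same reads are divided between them.

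Of 32 further activators of the pathway, 31 were tested and 3 were called, all lower, with a median of −0.10 over the 31. Of 26 further inhibitors, 25 were tested and 3 were called, 2 lower and 1 higher, again with a median of −0.10. These counts stand beside 7.54% of all tested genes called, and with trends removed the medians were 0.0029 for the activators and −0.011 for the inhibitors. The activators called are Pik3cd, a PI3K catalytic subunit mainly of leukocytes (1.49 ± 0.432 CPM in transplant livers and 2.82 ± 1.25 CPM in empty scaffold livers, log2 fold change −0.93 ± 0.27, edgeR adjusted p = 0.0461), Rragd, a RAG GTPase that places mTOR complex 1 at the lysosome (−1.23 ± 0.33, adjusted p = 0.0395), and Prr5l, an mTOR complex 2 component (−0.95 ± 0.25, adjusted p = 0.0376). Among the inhibitors, Inpp5d, a lipid phosphatase mainly of blood cells, had 1.61 ± 0.492 CPM in transplant livers and 3.29 ± 0.729 CPM in empty scaffold livers (−1.04 ± 0.20, edgeR adjusted p = 0.0144). Cbl, a ubiquitin ligase, was lower (−0.64 ± 0.17, adjusted p = 0.0368), and Nprl2, a subunit of the complex that silences the RAG GTPases, was higher (0.33 ± 0.09, adjusted p = 0.0402). With trends removed, Inpp5d was the 1 gene of these lists still called (−0.82, edgeR adjusted p = 0.0369). Leaving out 1 library at a time kept Inpp5d in all 14 fits, and the others in 3 (Nprl2) to 7 (Rragd) of 14.

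Some markers of other liver cell types were called lower in transplant livers, where 4.23% of all tested genes were called lower. Of 12 Kupffer cell and macrophage markers 5 were called lower (Cd5l, Csf1r, Cd68, C1qb and C1qc, log2 fold changes −1.14 to −0.64), and the summed level of the 12 was 159 to 239 CPM in transplant livers and 203 to 473 CPM in empty scaffold livers. Of 7 tested leukocyte markers 1 was lower, Ptprc (−0.97 ± 0.28, edgeR adjusted p = 0.0434), with sums of 62.6 to 79.4 CPM in transplant livers and 65.3 to 100.3 CPM in empty scaffold livers. Most of that sum was Lcp1, not called, which averaged 57.1 CPM in transplant livers and 63.1 CPM in empty scaffold livers. Of 8 stellate cell markers 3 were lower (Lrat, Col1a2 and Col3a1), with sums of 128 to 252 CPM in transplant livers and 160 to 363 CPM in empty scaffold livers. Its largest part was Dcn, not called, which averaged 112 CPM in transplant livers and 121 CPM in empty scaffold livers. Of 8 sinusoidal endothelial markers 2 were lower (Stab2 and Cdh5), with sums of 94.1 to 138 CPM in transplant livers and 123 to 196 CPM in empty scaffold livers. Of the bile duct markers none of 5 tested was called. With trends removed, 6 of the 12 Kupffer cell and macrophage markers were called, and none of the leukocyte, stellate or endothelial markers, against 3.09% of all genes. The median log2 fold change of the 12 was then −0.82, and −0.65 as fitted. None of these markers was at 0 in all libraries, and their part in the values of Inpp5d, Pik3cd or Irs1 was not tested. Of 6 adipocyte markers 2, Cidea and Fabp4, passed the filter on low counts and neither was called. The sum of the 6 was 6.08 to 58.7 CPM in transplant livers and 12.3 to 98.3 CPM in empty scaffold livers. Nearly all of it came from Cidea and Fabp4, since Adipoq, Plin1, Lep and Ucp1 each averaged at most 0.170 CPM in either group.

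Of 9 transcripts that insulin is known to regulate in liver, 8 were tested and none was called. Their median log2 fold change was −0.03, and 0.25 with trends removed. Pck1, a gluconeogenic enzyme that insulin represses, averaged 1874 ± 462 CPM in transplant livers and 1332 ± 377 CPM in empty scaffold livers (log2 fold change 0.49 ± 0.20, edgeR adjusted p = 0.114). Of the other transcripts that insulin represses, values were positive for G6pc, the last enzyme of glucose release (0.42 ± 0.18, adjusted p = 0.136), and Igfbp1, a secreted protein (0.49 ± 0.25, adjusted p = 0.198). They were negative for Pdk4, a kinase that inhibits pyruvate dehydrogenase (−0.26 ± 0.25, adjusted p = 0.492), for Ppargc1a, a coactivator of gluconeogenic genes (−0.30 ± 0.11, adjusted p = 0.0951), and for Irs2, given above. Srebf1, the lipogenic factor that insulin induces, had −0.25 ± 0.21 (adjusted p = 0.448), with −0.03 once trends were removed, 0.19 in the lower range of title numbers and −0.83 in the higher range. Trib1 had 0.08 ± 0.12 (adjusted p = 0.693). With trends removed, values were positive for Pck1 (0.55), G6pc (0.39), Igfbp1 (0.33) and Irs2 (0.20), and negative for Pdk4 (−0.21) and Ppargc1a (−0.15). The transcripts that insulin represses thus had values of either sign on both scales, with Irs2 changing sign, and none passed the test.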

How the data were processed

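RNA of 14 mouse liver samples was sequenced, 6 of the transplant and 8 of the empty scaffold group. Per the labels' protocols, RNA with an integrity number (RIN) above 7 entered stranded mRNA libraries from 200 ng. The submitters' processing notes name fastp 0.20 (read trimming), kallisto 0.46.1 (transcript quantification), DESeq2 1.38 and the build GRCm39. Neither options, annotation release nor strand setting is stated in these sources. As shown per the file headers, the tables deposited by the authors, 1 per sample, hold the length, effective length, estimated count and TPM of each transcript. The estimated counts are not normalized and need not be whole. The deposited TPM values have the same total in every library and keep no depth, so they serve only to compare levels between genes and as a second scale for Irs1 and Rheb. The deposited effective lengths, in bases on a linear scale (score), served only for an alternative offset.

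Of 128803 transcripts, 120661 (93.7%) were matched by identifier to GENCODE M21. That annotation is of GRCm38, another build, and it was used for gene names and GC content. A gene's length is the mean of its deposited transcript lengths, weighted by estimated count. Estimated counts were summed per gene and rounded to whole numbers. Genes were filtered with filterByExpr of edgeR 4.0.16 (R 4.3.3), scaled by TMM factors and compared by its robust quasi-likelihood F test, with no covariate. Benjamini-Hochberg adjustment ran over all 13131 genes, and an adjusted p under 0.05 is a call. Levels are CPM of the TMM-scaled library, and errors of log2 fold changes are standard errors of the fit. On simulated counts for these libraries, 79% of 200 genes changed by 1 on the log2 scale were recovered, with 5 false calls among 13131 genes. Those counts were drawn without a length trend per library, and the change of 1 exceeds the fitted value of each of the 30 genes. The figures therefore do not give the error rate or the recovery for the 30 genes in these data.

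For the fits with trends removed, natural splines (4 degrees of freedom each) of log2 gene length and of GC content were fitted per library and became its offsets. Such an offset also takes out any true difference that follows length or GC content. Other alternatives were DESeq2 1.42.0, other filters and scalings, effective lengths as offsets, the number range of the sample titles as a covariate or taken alone, and each library left out in turn. Transcripts were tested in the same way. Slopes per library were compared by a two-sided exact permutation test.

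The 30 genes, the further lists and the tests were chosen with earlier results of these data known. Every one of the 30 genes is reported whatever its result, and of the further pathway lists the called genes are named, up to 10 per list. The called cell type markers and all tested insulin-regulated transcripts are named in addition, a choice made after their values were seen. One gene of the list of insulin-regulated transcripts is not reported here and was left out of that list's counts. Replicates were numbered by accession, which pairs nothing. Because the labels do not say that each sample is a separate animal, a p-value here measures the spread among the samples, which may be technical in part. RefSeq promoter windows, of build GRCm38.p6, reached from 250 bases before to 50 bases after each start.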

Additional observations from a re-analysis of the deposited data

Results flagged for a closer look

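Among the 30 genes and the library slopes, 64 groups of values were examined for a library far from its group, by Dixon's test at the 95% level, which chance alone passes in about 1 in 20 groups, and 3 passed. That is near the number that chance alone gives, and the groups share libraries, so they are not independent. Mtor had 27.9 CPM in transplant replicate 1, against 42.3 to 47.5 CPM in the other 5 transplant livers. Ptpn1 had 11.8 CPM in the same library, against 16.6 to 19.0 CPM in the other 5. Foxo1 had 22.9 CPM in empty scaffold replicate 5, against 31.6 to 39.2 CPM in the other 7 empty scaffold livers. Transplant replicate 1 also had the most negative length slope of the 14 libraries, −0.267. Without it the log2 fold change of Mtor was −0.35 (edgeR adjusted p = 0.143) and that of Ptpn1 −0.25 (edgeR adjusted p = 0.1999), and without empty scaffold replicate 5 that of Foxo1 was −0.09. The part of sample handling, library preparation and biology in these values was not tested.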

How the results depend on the processing

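Counts of calls moved with the processing. Against 990 genes and 2 of the 30 called over all samples, DESeq2 called 1965 and 4, the length and GC offset 406 and 0, the length offset 563 and 1, the effective length offset 315 and 1, total counts without TMM factors 2884 and 16, and the range as a covariate 2576 and 7. Of the 30 genes, the range with the length and GC offset called 1 and no filter on low counts 0, where 670 of 24983 genes (2.68%) were called. Samples numbered below 100 alone gave 3 genes and 0 of the 30, and with the length and GC offset 1 and 0, and samples numbered 100 or above gave 3487 and 10, and with the offset 1 of the 30. Leaving out 1 library at a time gave 138 to 1910 genes and 0 to 5 of the 30, 0 to 7 genes with an interaction (against 0), 0 to 6 transcripts (against 0), and a length slope difference of −0.213 to −0.151. The range as a covariate gave 8 transcripts. Each range alone with the offset, the scaling without TMM factors and leaving out libraries for the length slope were chosen after seeing the data.

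The sign of the log2 fold change also depended on the setting for many of the 30 genes, of which Irs1 alone among those named next was called over all samples. With the length and GC offset the opposite sign was found for Insr 0.065, Irs2 0.20, Shc1 0.059, Pdpk1 0.047, Akt2 0.12, Rictor 0.019, Rptor 0.11, Gsk3a 0.057, Gsk3b 0.011, Foxo1 0.25, Foxo3 0.088 and Phlpp2 0.087. With the length offset the opposite sign was found for Insr 0.058, Irs2 0.11, Shc1 0.010, Pik3ca 0.057, Pdpk1 0.063, Akt2 0.051, Rictor 0.080, Rptor 0.0096, Gsk3b 0.020, Foxo1 0.22, Foxo3 0.016 and Phlpp2 0.063. With the effective length offset the opposite sign was found for Akt1 −0.033, Gsk3b 0.093 and Tsc2 0.28. With the range as a covariate and the length and GC offset the opposite sign was found for Insr 0.063, Irs2 0.19, Shc1 0.057, Pdpk1 0.035, Akt2 0.12, Rictor 0.024, Rptor 0.11, Gsk3a 0.054, Gsk3b 0.0094, Foxo1 0.24, Foxo3 0.091, Tsc2 0.0026 and Phlpp2 0.086. In samples numbered below 100 the opposite sign was found for Insr 0.057, Irs2 0.37, Pik3cb 0.077, Akt2 0.048, Rictor 0.0052, Gsk3a 0.12 and Foxo1 0.16. In samples numbered 100 or above the opposite sign was found for Akt1 −0.077. In samples numbered below 100 with the offset the opposite sign was found for Insr 0.14, Irs2 0.50, Shc1 0.0053, Pik3cb 0.15, Akt2 0.098, Rictor 0.058, Rptor 0.064, Gsk3a 0.16, Gsk3b 0.066, Foxo1 0.25, Foxo3 0.010, Tsc2 0.056 and Phlpp2 0.053. In samples numbered 100 or above with the offset the opposite sign was found for Irs1 0.17, Shc1 0.11, Pik3r2 0.064, Pdpk1 0.16, Akt2 0.14, Rptor 0.14, Foxo1 0.23, Foxo3 0.17, Phlpp1 0.026, Phlpp2 0.12 and Inpp5k 0.065. With RLE size factors the opposite sign was found for Akt2 0.011 and Gsk3a 0.014. With DESeq2 the opposite sign was found for Akt2 0.011 and Gsk3a 0.014. Without TMM factors the opposite sign was found for Akt1 −0.22 and Grb14 −0.016. Leaving out 1 library at a time, 20 of 420 values changed sign, those of Akt1 (−0.023 to 0.042), Akt2 (−0.034 to 0.027), Gsk3a (−0.045 to 0.059) and Foxo1 (−0.087 to 0.095). The cause of these shifts was not tested beyond the length and GC offsets. No paired analysis was possible because replicates were numbered by accession, which pairs nothing. Precision is limited by 6 and 8 samples, and by low counts for Grb10 and Phlpp2, which had at most 2.04 CPM in every library.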
